A study of Caenorhabditis elegans with 4 samples.

Results

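Nuclear hormone receptors are transcription factors that bind DNA through a zinc finger domain and carry a ligand-binding domain that can sense small lipophilic molecules such as steroids, fatty acids and foreign compounds. In *Caenorhabditis elegans* the family is greatly expanded, mostly from an ancestor related to the vertebrate receptor HNF4, and many of its members are clustered on chromosome V. Characterised members control fat metabolism, detoxification, defence against pathogens and developmental timing, and the intestine is a major site of their action.

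The genes described here were the protein-coding rows of the count table whose WormBase symbol starts with nhr-, apart from 2 that were left out by name. They were 266 of 46643 rows, and all 266 lay at the position of the same gene in the WBcel235 annotation. The authors' table gave a gene a single domain label or none, so a label does not show that the other domain is absent. The label was the zinc finger (zf-C4) for 117 members and the ligand-binding domain (Hormone_recep) for 144. The remaining 5 members, nhr-244, nhr-246, nhr-259, nhr-263 and nhr-280, were listed with no receptor domain.

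Polyadenylated RNA of whole wild-type (N2) animals was sequenced in 4 libraries. Synchronised L1 larvae were grown at 25 °C on NGM plates with OP50 bacteria until adult day 1, either with 2.5 mM ketamine, an anesthetic that blocks NMDA receptors in mammals (2 libraries), or with the M9 buffer vehicle at 0 mM (2 libraries). The labels do not say whether the 2 libraries of a group came from separate cultures, so the p-values measure only the spread between these libraries. In whole animals, fewer cells of a type and less RNA per cell cannot be told apart. The study reports delayed development and smaller broods at this dose. Whether the libraries matched in stage and reproductive state was not tested. A difference in stage cannot be told apart here from another effect of ketamine.

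The counts summed to between 29192110 and 43419202 per library. Expression is given as CPM, counts normalised to the library size after TMM scaling (a correction for differences in composition), and levels are compared between genes only as FPKM, the authors' values normalised also to gene length. The defining markers of intestine, neurons, body muscle, epidermis, germline and sperm, 31 genes in all, were detected. The summed body muscle markers differed between the controls (2197 and 3814 CPM), against 2353 and 2270 CPM under ketamine. The summed sperm markers were 77.4 and 70.9 CPM in the controls and 54.3 and 43.0 CPM under ketamine. Those of germline and oocytes were 4444 and 4587 CPM in the controls and 4995 and 4930 CPM under ketamine.

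As a family, the receptors were expressed at low levels. The median member had a mean of 1.502 FPKM over the 4 libraries, while the median of the tested members was 3.16 FPKM and that of all 15793 tested genes was 7.64 FPKM. At least 10 FPKM was reached by 22 members, between 1 and 10 FPKM by 132, and the remaining members were under 1 FPKM. In 17 members, no count was found in any library. Testing required at least 10 counts in at least 2 libraries, and 186 of the 266 members passed. Of the 80 that did not, 63 had some counts, with the highest in any library being 45 counts for nhr-38 in control 1, against 8, 4 and 8 counts in control 2, ketamine 1 and ketamine 2.

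Together the 266 genes took 0.185% and 0.167% of the counts in controls 1 and 2 and 0.171% and 0.170% under ketamine, and the ketamine libraries lay between the controls. After TMM scaling, their summed expression was 1744 CPM in control 1, 1725 CPM in control 2, 1735 CPM in ketamine 1 and 1714 CPM in ketamine 2. The 10 most abundant members held between 32.3% and 36.2% of the family's summed FPKM in each library.

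The most abundant receptor transcript was nhr-114, a receptor that protects the germline in a manner that depends on the bacterial diet. Its level was 52.1 and 99.5 FPKM in controls 1 and 2 and 69.9 and 65.6 FPKM in ketamine 1 and 2. Both ketamine libraries lay between the controls. Its log2 fold change was -0.16 (standard error 0.33, adjusted p = 0.877, edgeR). It was -0.58 without control 1 and 0.39 without control 2, so that its direction depended on which control was used. Next came nhr-49, nhr-68, nhr-66 and nhr-97 with means of 52.5, 42.3, 36.1 and 34.7 FPKM, followed by nhr-274 (28.8 FPKM), nhr-86 (26.6 FPKM), nhr-71 (19.1 FPKM), nhr-46 (18.1 FPKM) and nhr-10 (17.6 FPKM). NHR-68 and NHR-10 act together in the pathway that degrades propionate, and NHR-66 is a partner of NHR-49. In this order every pair of neighbours overlapped in their values over the libraries, apart from nhr-86 and nhr-71. nhr-8 ranked 23 of 266, at 9.98 FPKM.

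**Figure D1:**
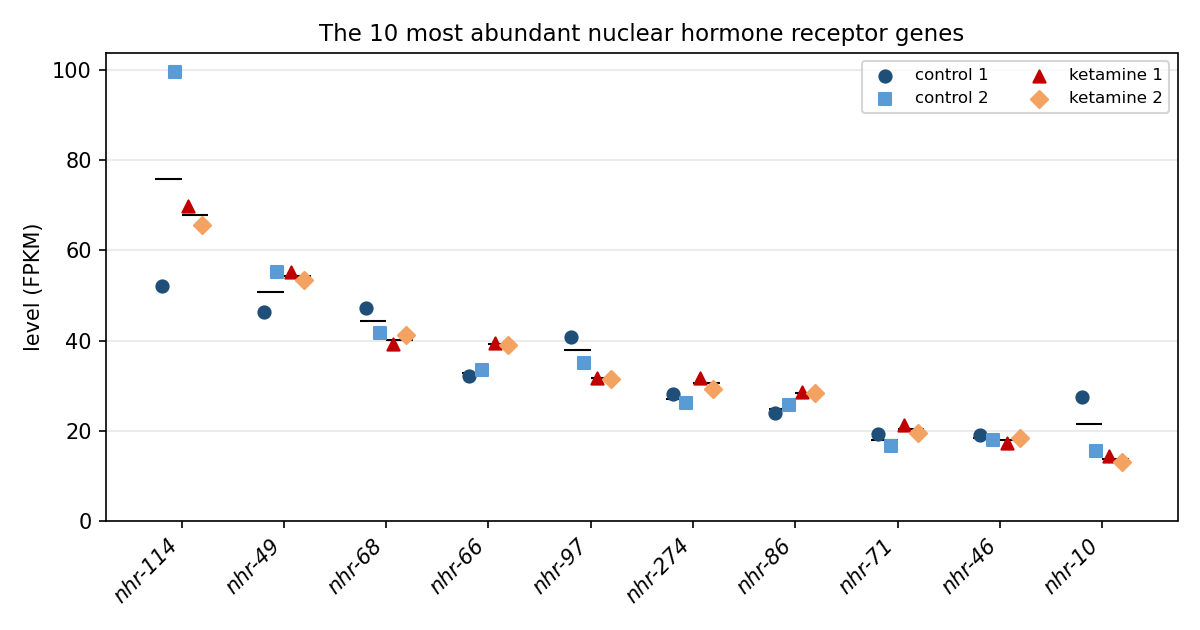
Level in FPKM (vertical axis) of the 10 most abundant receptor genes in each of the 4 libraries, with horizontal lines at the mean of each group. The controls of nhr-114 (52.1 and 99.5 FPKM) enclose both ketamine values.

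With edgeR's quasi-likelihood test, 0 of the 186 tested receptors were called higher and 0 were called lower under ketamine, where a call needed a 2-fold difference and p under 0.05 after Benjamini-Hochberg adjustment. Among all 15793 tested genes 0.095% were called higher and 0% lower. Without adjustment, at p under 0.05, 6 receptors were higher, where the background was 2.77% of all genes, and 3 were lower, where the background was 3.32%. These are 3.23% and 1.61% of the members. The share of members past this threshold was thus close to that of all genes for higher and below it for lower. DESeq2, the tool of the study, was also run here on the same tested genes. It called 1 receptor higher (background 0.69%) and 0 lower (background 0.146%). At an unadjusted p under 0.05 it gave 7 higher and 2 lower (backgrounds 2.96% and 3.08%). Over all tested genes this fit called 109 higher and 23 lower. The study reported more genes in each direction, so these calls are not its own list. Why the numbers differ was not tested.

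The centre of the family lay close to that of all genes. Over the 186 members, the log2 fold change had a median of -0.003, against -0.005 over all tested genes, with quartiles of -0.26 and 0.27 against -0.29 and 0.28. A value above 0 was found in 92 members and below 0 in 94. Less than a 2-fold difference was found for 174 members (93.6%, against 92.1% of all tested genes), while 7 were at least 2-fold higher and 5 at least 2-fold lower. Both ketamine libraries lay above both controls in 42 members (background 23.1%) and below both in 39 (background 20.6%), which is close to the background in each direction.

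**Figure D2:**
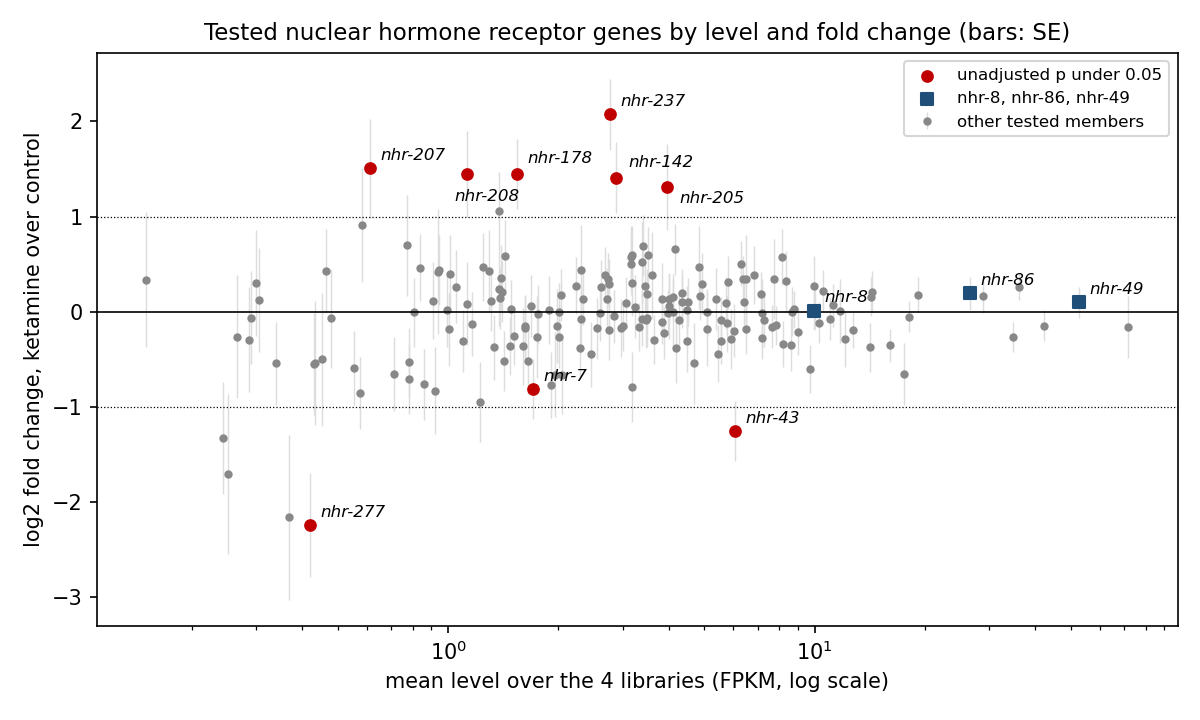
Log2 fold change of ketamine over control (vertical axis, bars are standard errors) against mean FPKM over the 4 libraries (log scale) for the 186 tested receptors. The 9 members with an unadjusted p under 0.05 (red) are all below 10 FPKM, and nhr-8, nhr-86 and nhr-49 (blue squares) lie near 0.

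The abundant receptors differed least. Among the 22 members with at least 10 FPKM, log2 fold changes ranged from -0.66 to 0.26, with a median size of 0.17 (0.21 for all tested genes at this level) and a median standard error of 0.21. For the 132 members between 1 and 10 FPKM the range was -1.25 to 2.07. The 32 tested members under 1 FPKM ranged from -2.24 to 1.51 with a median standard error of 0.52, so that differences in this class were measured with less precision.

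NHR-8, related to the vertebrate vitamin D and xenobiotic receptors, takes part in resistance to toxic compounds and in cholesterol balance. nhr-8 (F33D4.1, chromosome IV, 7710988 to 7714681) was at 24.4 and 23.1 CPM in the controls and 22.2 and 25.6 CPM under ketamine. The groups overlapped, and the log2 fold change was 0.01 (standard error 0.20, 95% interval -0.50 to 0.53, adjusted p = 0.986, edgeR).

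NHR-86 senses a phenazine metabolite of pathogenic *Pseudomonas* in the intestine and activates immune genes. nhr-86 (Y40B10A.8, chromosome V, 2061133 to 2066844) was at 33.8 and 36.5 CPM in the controls and 40.5 and 40.2 CPM under ketamine. Both ketamine libraries were above both controls, by a small margin, and the log2 fold change was 0.20 (standard error 0.17, 95% interval -0.25 to 0.64, adjusted p = 0.751, edgeR). Its gene overlaps comt-3 on the opposite strand, and whether counting used strand is not given in the sources used here.

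NHR-49, an HNF4-like receptor that plays a role comparable to that of mammalian PPAR alpha, promotes fatty acid desaturation and breakdown. nhr-49 (K10C3.6, chromosome I, 9869663 to 9874676) was at 100.5 and 120.2 CPM in the controls, and 120.0 and 116.2 CPM under ketamine (110.3 ± 13.9 against 118.1 ± 2.68, SD, n = 2). The ketamine libraries lay within the range of the controls, and the log2 fold change was 0.10 (standard error 0.16, 95% interval -0.31 to 0.51, adjusted p = 0.842, edgeR). For these 3 receptors the intervals do not reach 2-fold in either direction.

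The receptor with the smallest p was nhr-237 (Y46H3D.6, chromosome V, 1625225 to 1626818). Its counts were 40 (control 1), 48 (control 2), 141 (ketamine 1) and 152 (ketamine 2), or 0.868, 1.37, 4.14 and 5.27 CPM. Both ketamine libraries were far above both controls. The 4.21-fold difference (log2 fold change 2.07, standard error 0.37) had an unadjusted p of 0.00263 and an adjusted p of 0.520 in edgeR, and an adjusted p of 0.00199 in DESeq2, which made it the only receptor that DESeq2 called. Without control 1 the log2 fold change was 1.75 (adjusted p = 0.0455, edgeR), and without control 2 it was 2.44 (adjusted p = 0.00187, edgeR). It was 2.24 without ketamine 1 and 1.89 without ketamine 2, with an adjusted p of 1.00 in both fits.

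The other 5 receptors higher at an unadjusted p under 0.05 were nhr-178, nhr-142, nhr-208, nhr-205 and nhr-207, with differences of 2.48-fold to 2.84-fold. nhr-178 (F16B4.9, chromosome V, 1603932 to 1607846) was at 0.868 and 1.37 CPM in the controls and 3.06 and 3.05 CPM under ketamine (log2 fold change 1.45, standard error 0.37, adjusted p = 0.748, edgeR). nhr-142 (F44E7.8, chromosome V, 5785958 to 5790066) was at 2.91 and 1.63 CPM in the controls and 6.61 and 5.51 CPM under ketamine (log2 fold change 1.41, standard error 0.38). In each the groups were well apart. nhr-205 (R04B5.3, chromosome V, 10080119 to 10081739) was at 3.91 and 1.72 CPM in the controls and 6.70 and 7.34 CPM under ketamine, and its controls differed more from each other than its ketamine libraries. Without control 1 its log2 fold change was 2.004 in place of 1.31, and without control 2 it was 0.85. For nhr-142 the values without control 1 and without control 2 were 1.87 and 1.06.

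nhr-208 and nhr-207 had few counts. nhr-208 (R07B7.15, chromosome V, 12094374 to 12095947) was covered by 48 (control 1), 18 (control 2), 77 (ketamine 1) and 59 (ketamine 2) counts, and its log2 fold change was 1.45 with a standard error of 0.45. nhr-207 (R07B7.14, chromosome V, 12096234 to 12097845) was covered by 14, 17, 28 and 41 counts in the same order, and its log2 fold change was 1.51 with a standard error of 0.52. For nhr-206 and nhr-202, which follow in the order of p, both ketamine libraries were also above both controls, with log2 fold changes of 1.06 and 0.66 and unadjusted p of 0.0531 and 0.0575 (edgeR).

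**Figure D3:**
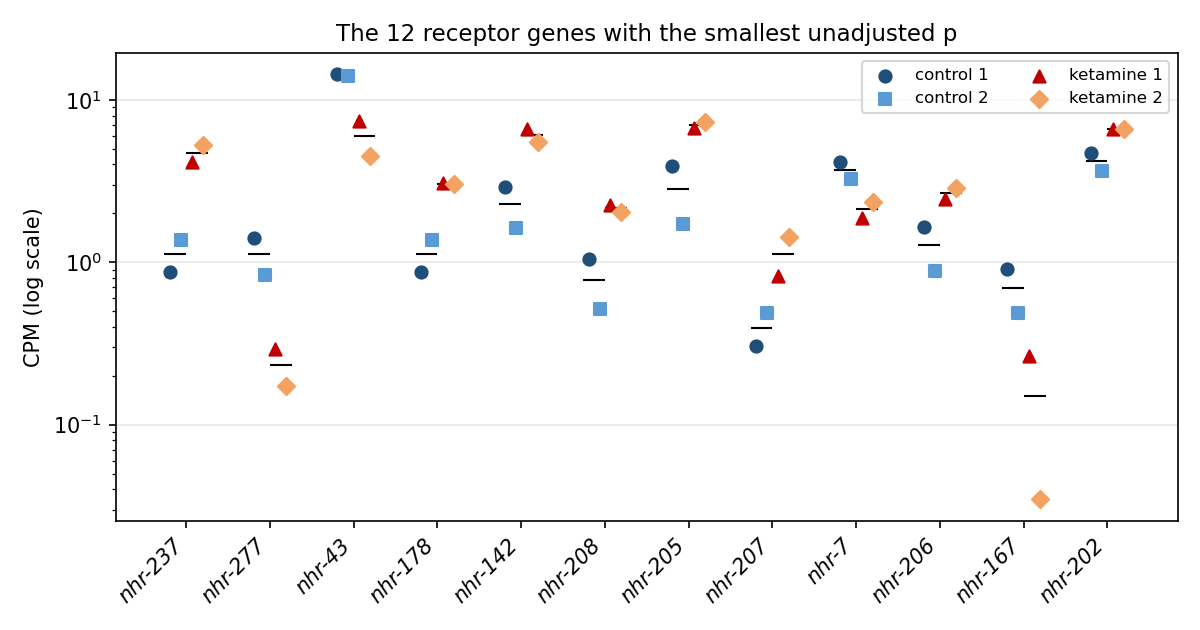
CPM on a log scale (vertical axis) in each of the 4 libraries for the 12 receptors with the smallest unadjusted p, in that order from the left, with horizontal lines at group means. In all 12 the ketamine libraries lie wholly above or wholly below the controls. The 12 were chosen by p from these same libraries, which favours such separation. The largest separation upwards is that of nhr-237, from 0.868 and 1.37 CPM to 4.14 and 5.27 CPM.

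The 3 receptors lower at an unadjusted p under 0.05 were nhr-277, nhr-43 and nhr-7. The most abundant of them was nhr-43 (C29E6.5, chromosome IV, 11899683 to 11902911), at 14.4 and 14.1 CPM in the controls and 7.37 and 4.54 CPM under ketamine. Its controls were nearly equal and both ketamine libraries were lower, with 0.419 of the control level (log2 fold change -1.25, standard error 0.31, adjusted p = 0.748 in edgeR and 0.0827 in DESeq2). nhr-277 (Y94H6A.1, chromosome IV, 2743007 to 2747476) was covered by 65 (control 1), 29 (control 2), 10 (ketamine 1) and 5 (ketamine 2) counts. This was the lowest log2 fold change of the family at -2.24 (standard error 0.55, 95% interval -3.65 to -0.83). nhr-7 (F54D1.4, chromosome IV, 11266292 to 11268857) was at 4.17 and 3.26 CPM in the controls and 1.88 and 2.36 CPM under ketamine. Its log2 fold change was -0.81 with a standard error of 0.31 (unadjusted p = 0.0492 in edgeR and 0.0607 in DESeq2).

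The X-linked nhr-167 (C49F5.4) had a value as low as that of nhr-277 but fewer counts. Its counts were 42 (control 1), 17 (control 2), 9 (ketamine 1) and 1 (ketamine 2), and its log2 fold change of -2.16 (standard error 0.86) was -4.22 without ketamine 1 and -1.40 without ketamine 2. Among the markers, 4 of 5 sperm genes (median -0.48) and all 5 body muscle genes (median -0.41) had a log2 fold change below 0. The medians were above 0 for intestine (0.29), epidermis (0.20), neurons (0.16) and germline (0.16). In these lists, in the same order, 2 of 5, 2 of 5, 2 of 5 and 1 of 6 genes were below 0. Summed CPM under ketamine was lower than in both controls for sperm and higher than in both for germline and oocytes. It lay between the controls for body muscle, intestine and neurons, and the groups overlapped for epidermis. The part of any marker list in the result was not tested.

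**Figure D4:**
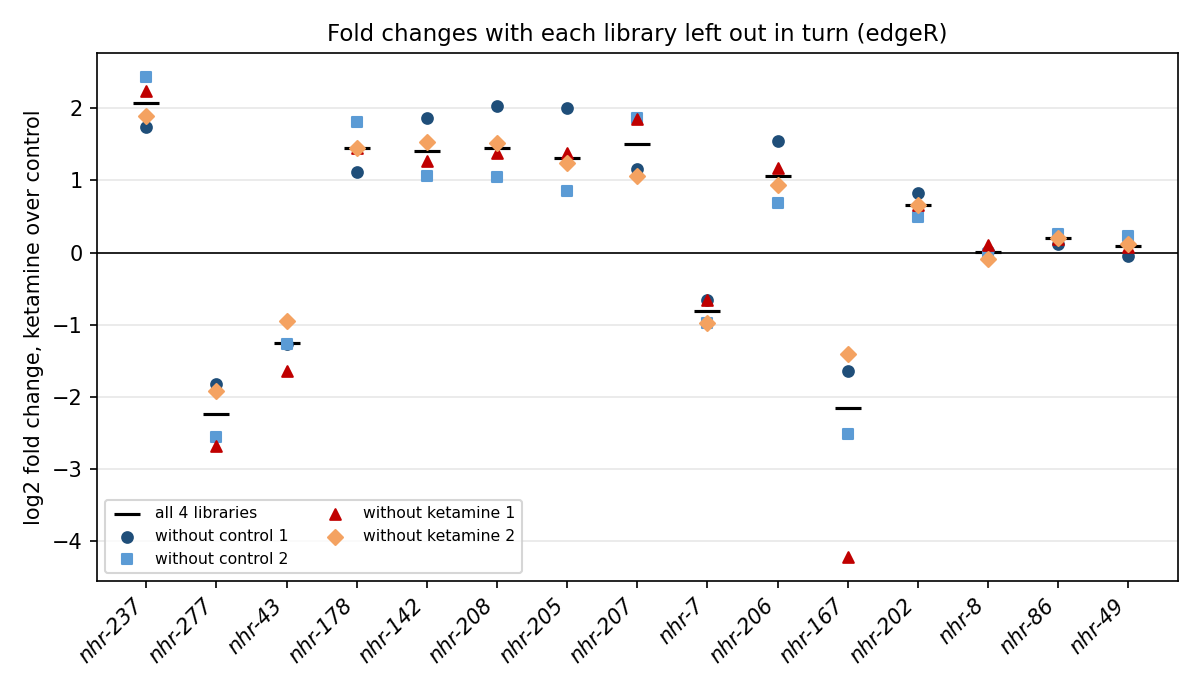
Log2 fold change of ketamine over control (vertical axis) from edgeR for the 12 receptors with the smallest unadjusted p and for nhr-8, nhr-86 and nhr-49, with all 4 libraries (black bars) and with each library left out in turn. The sign stays the same for the 12 and for nhr-86 in all 4 fits, and nhr-8 and nhr-49 cross 0. The groups of the 12, which were chosen by p, and of nhr-86 do not overlap in CPM. A kept sign in these genes largely follows from that.

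All 6 receptors that were higher at an unadjusted p under 0.05 are on chromosome V, and all 3 that were lower are on chromosome IV. Chromosome V holds 166 of the 266 members, of which 117 were tested. The 6 are 5.13% of these 117, and 161 of the 3139 tested genes of any kind on chromosome V (5.13%) passed the same threshold upwards, which is the same share. Downwards, 0 of the 117 passed, against 3.63% of all genes on chromosome V. On chromosome IV, where 28 of 33 members were tested, the 3 lower receptors are 10.7% of those tested, against 97 of 2658 genes of any kind there (3.65%). A difference between these shares was not tested. Among the 3, nhr-7 only just passed the threshold (unadjusted p = 0.0492, edgeR) and did not pass it in DESeq2 (unadjusted p = 0.0607). The median log2 fold change of the receptors on this chromosome was -0.15, against -0.04 for all genes there. The tested share differed between chromosomes, from 8 of 22 members on chromosome I to 28 of 33 on chromosome IV. Their median level was 0.104 FPKM on chromosome I, 1.38 FPKM on chromosome V and 5.26 FPKM on the X chromosome.

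Many receptors are neighbours. Another member lay within 10 kb of 158 of the 266, and there were 21 groups of at least 3 such neighbours. The groups holding nhr-237 and nhr-208 are described because of the small p of these genes. High values within them were thus part of the choice. In a group of 7 on chromosome V, between 1603932 and 1629442, the genes differed in direction. nhr-178 at one end and nhr-237 and nhr-238 at the other had log2 fold changes of 1.45, 2.07 and 0.70. The 4 genes between them, nhr-177, nhr-179, nhr-117 and nhr-110, had -0.38, -0.52, -0.67 and -0.17, with unadjusted p from 0.167 to 0.610 (edgeR). nhr-238 and the 4 genes between were named after their values were seen.

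In a second group of 7 on chromosome V, between 12092026 and 12109137 and all on the plus strand, the higher values lay at one end. The first 3 genes, nhr-206, nhr-208 and nhr-207, had log2 fold changes of 1.06, 1.45 and 1.51. In each, both ketamine libraries were above both controls, as in 23.1% of all tested genes. The next 4, nhr-209, nhr-154, nhr-153 and nhr-136, had 0.14, -0.01, -0.17 and -0.26, with overlapping groups. These 4 were also named after their values were seen. Near-identical copies could share reads, and whether they did was not tested. nhr-205 lies 402 bp from nhr-12, whose log2 fold change was 0.01 with a standard error of 0.34, and which was named for its position.

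**Figure D5:**
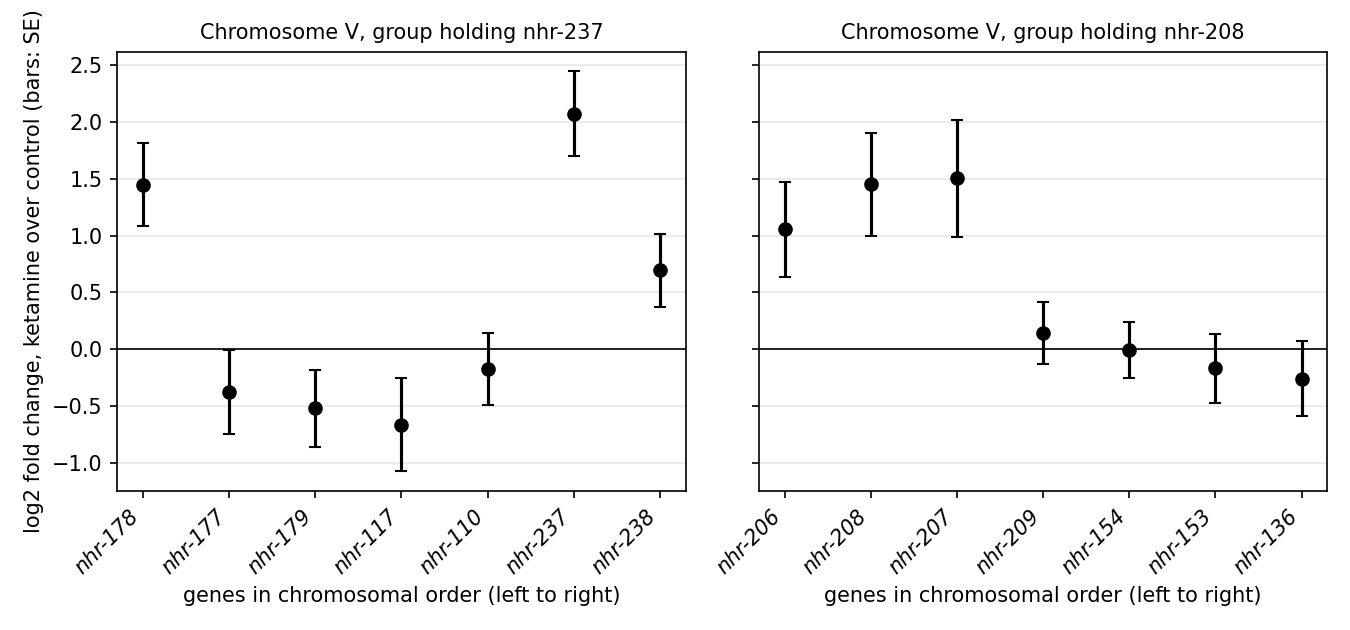
Log2 fold change of ketamine over control (vertical axis, bars are standard errors) of the genes in 2 groups of 7 neighbouring receptors on chromosome V, in chromosomal order. In the left group nhr-178 and nhr-237 are highest (1.45 and 2.07), and in the right group the first 3 genes lie at 1.06 to 1.51 and the other 4 between -0.26 and 0.14. Each group was chosen because it holds a gene with a small p, nhr-237 or nhr-208.

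The largest group of neighbours, 12 genes on chromosome V that include nhr-202, was tested in full. Its log2 fold changes ran from -0.29 to 0.66. By the domain that the authors' table lists, the 115 tested members with the ligand-binding domain had a median log2 fold change of 0.08 (4 higher and 1 lower at an unadjusted p under 0.05, or 3.48% and 0.870%), and the 70 with the zinc finger a median of -0.09 (2 higher and 2 lower, or 2.86% each). Over all tested genes these shares were 2.77% and 3.32%. This difference was not tested.

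Receptors of fat and central metabolism were a list of 12 members, all tested. Of these 0 passed the threshold with or without adjustment in edgeR, 7 had a log2 fold change above 0 and 5 below, and the median was 0.10. The values ran from -0.66 for nhr-10 to 0.50 for nhr-62, a receptor needed for the long life of animals on a restricted diet. nhr-10 was at 42.9 CPM in control 1 and 24.2 CPM in control 2, and at 22.3 and 20.3 CPM under ketamine. Control 1 stood apart, and without it the log2 fold change of nhr-10 was -0.21, whereas without control 2 it was -1.005. nhr-31, which acts on the proton pump genes of the excretory cell, was at 42.1 and 39.5 CPM in the controls and 30.9 and 32.9 CPM under ketamine (log2 fold change -0.35, standard error 0.18, unadjusted p = 0.102, edgeR). nhr-80, a receptor that controls desaturase genes, was at 5.32 and 13.1 CPM in the controls and 12.4 and 10.8 CPM under ketamine, so that its groups overlapped.

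Receptors linked to foreign compounds, stress or pathogens were a list of 8, all tested, and 0 passed either threshold in edgeR. Their log2 fold changes ran from -0.14 for nhr-45, which takes part in the response to mitochondrial dysfunction, to 0.60 for nhr-57, a gene induced by the hypoxia factor HIF-1. nhr-57 was at 3.10 and 3.89 CPM in the controls and 4.49 and 6.10 CPM under ketamine (standard error 0.30, unadjusted p = 0.107, edgeR). nhr-176, which is needed for breakdown of the drug thiabendazole, was at 6.88 and 5.15 CPM in the controls and 6.67 and 6.13 CPM under ketamine.

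The members of conserved subfamilies, with clear counterparts in other animals, were a list of 9, of which 7 were tested. None passed either threshold (0 of 7, edgeR), and the median was -0.03. nhr-67, the counterpart of tailless, which acts in the anchor cell of the gonad, was at 1.04 and 1.20 CPM in the controls and 0.617 and 0.624 CPM under ketamine (log2 fold change -0.85, standard error 0.38, unadjusted p = 0.0746, edgeR). nhr-6, the NR4A receptor of spermatheca development, was at 2.78 and 1.86 CPM in the controls and 1.56 and 1.28 CPM under ketamine (log2 fold change -0.71). For both genes the ketamine libraries were below the controls, as in 20.6% of all tested genes. nhr-111 had no count in any library, and nhr-239 was covered by 0 (control 1), 3 (control 2), 7 (ketamine 1) and 1 (ketamine 2) counts. The list of 9 development receptors, all tested and in part the same genes, had a median of -0.19, with 7 of 9 below 0 and 0 past either threshold in edgeR.

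Of 5 nuclear receptors that carry other names, daf-12, sex-1, unc-55 and fax-1 were tested, and 0 passed either threshold in edgeR. The receptor of dauer and stage decisions, daf-12, was at 16.2 and 26.8 CPM in the controls and 24.6 and 21.6 CPM under ketamine. The coregulators mdt-15, a Mediator subunit that partners NHR-49, and din-1, gei-8, cbp-1 and dpy-22 had log2 fold changes between 0.04 and 0.40, and all 5 had overlapping groups.

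Among 7 genes known to depend on NHR-49 or NHR-80, 3 were higher at an unadjusted p under 0.05 (2.77% of all tested genes) and 0 were lower (3.32% of all tested genes), and 0 passed adjustment in edgeR. The list was chosen with earlier results of these data known, so these counts are no independent comparison with all genes. icl-1, of the glyoxylate cycle, was at 211 and 233 CPM in the controls and 394 and 364 CPM under ketamine (log2 fold change 0.77, standard error 0.15, unadjusted p = 0.00415, adjusted p = 0.637, edgeR). lbp-8, a lysosomal lipid carrier, was at 2.995 and 4.35 CPM in the controls and 7.75 and 8.77 CPM under ketamine (log2 fold change 1.17, standard error 0.30). acs-2, which activates fatty acids for breakdown, was at 25.7 and 18.5 CPM in the controls and 47.9 and 36.3 CPM under ketamine (log2 fold change 0.93, standard error 0.27). In these 3 genes the groups did not overlap. They also did not overlap in fat-6, in the other direction, at 370.1 and 424.9 CPM in the controls and 347.4 and 328.2 CPM under ketamine. Over all tested genes, both ketamine libraries lay above both controls in 23.1% and below both in 20.6%. The desaturase genes fat-5, fat-6 and fat-7 had log2 fold changes of -0.24, -0.23 and -0.84, and fmo-2 -0.37, with unadjusted p from 0.131 to 0.619 (edgeR), so the list did not move one way and its median was -0.23.

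Shorter lists of targets were taken for other receptors. acdh-1 and hphd-1, of the propionate pathway of NHR-10 and NHR-68, had log2 fold changes of -0.37 and -0.35 (unadjusted p of 0.113 and 0.128, edgeR). In both, the ketamine libraries were below the controls, as in 20.6% of all tested genes. cyp-35D1, the P450 gene that depends on nhr-176, was at 1.22 and 0.972 CPM in the controls and 0.441 and 0.485 CPM under ketamine (log2 fold change -1.24, standard error 0.40, unadjusted p = 0.0284, adjusted p = 0.748, edgeR). irg-4 and irg-5, immune genes that depend on NHR-86, had log2 fold changes of -0.03 and -0.71 with overlapping groups. irg-5 was at 63.4 CPM in control 1 and between 20.02 and 33.5 CPM in the other 3 libraries. The iron genes smf-3 and ftn-1, targets of NHR-14, had log2 fold changes of -0.36 and -0.29, and 0 of these 2 passed either threshold.

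The number of receptors called depended on the controls. Within the family, the controls differed by a median size of 0.32 on the log2 scale and the ketamine libraries by 0.17 (0.38 and 0.12 over all tested genes). Control 2 was below control 1 in 116 of the 186 members. The median log2 difference of control 2 from control 1 was -0.14 in the members, against 0.005 over all tested genes. Without control 2, edgeR called 9 receptors higher and 7 lower, where the background was 10.9% and 4.29% of all genes. Without control 1 it called 3 higher (background 0.646%), namely nhr-237, nhr-142 and nhr-205, and 0 lower (background 0.291%). At an unadjusted p under 0.05 there were 30 higher and 31 lower without control 2 (backgrounds 27.2% and 22.4%), and 14 higher and 8 lower without control 1 (backgrounds 8.25% and 9.23%). Without ketamine 1, edgeR called 0 higher (background 0.146%) and 0 lower (background 0%), with 2 higher and 3 lower before adjustment (backgrounds 1.06% and 0.791%). Without ketamine 2 it called 0 higher (background 0.133%) and 0 lower (background 0%), with 2 higher and 0 lower before adjustment (backgrounds 1.86% and 0.481%). In each of these fits the lone library is assumed to vary like the other group.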

How the data were processed

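The data were 2 control and 2 ketamine RNA-seq libraries. Hisat2 2.0.5 (WBcel235), StringTie 1.3.3b and featureCounts 1.5.0-p3 were the authors' tools, and raw counts per gene were deposited. They also deposited FPKM values, which are the counts divided by gene length and a library constant. The strand setting and the treatment of reads matching several genes are not given in the sources used here. The columns headed wild type were taken as the controls of the same number. Gene symbols came from WormBase identifiers, found for 46183 of 46643 rows.

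The groups were compared in edgeR 4.0.16 (quasi-likelihood, TMM, at least 10 counts in at least 2 libraries, no replicate block) in R 4.3.3, on all genes, with Benjamini-Hochberg adjustment. Standard errors are the log2 fold change over the square root of F. Exact permutation of 2 against 2 libraries cannot go below p = 0.33. DESeq2 1.42.0, limma 3.58.1 on log2(FPKM + 1) and log2(FPKM + 0.1), other scaling and filters, a replicate block, protein-coding genes alone and leaving out each library were alternatives. The fits were tested on simulated data. Named genes are nhr-8, nhr-86, nhr-49, members called by edgeR or DESeq2, the 12 smallest p, the 10 highest mean FPKM, the extreme fold changes and listed genes. Members and lists were chosen with earlier results of these data known. 2 libraries per group limit the precision. Sequences were not analysed here.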

Additional observations from a re-analysis of the deposited data

How the results depend on the processing

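The 5 family results were the numbers of receptors called higher and lower, the numbers past an unadjusted p of 0.05 and the median log2 fold change. DESeq2 called 1 receptor higher in place of 0, and without a count filter, where 249 members in place of 186 were tested, 7 in place of 3 were lower and 8 in place of 6 higher at an unadjusted p under 0.05 (3.78% and 2.77% of all 22643 genes in that fit). Leaving out 1 library moved the number called higher between 0 and 9, called lower between 0 and 7, higher at an unadjusted p under 0.05 between 2 and 30, and lower between 0 and 31, with the highest numbers without control 2. The cause was not tested. The median stayed between -0.08 and 0.01 in all alternatives. Of 274 values of the 23 named genes under alternatives, 257 kept direction and side of the threshold, 12 passed it only there and 5 changed sign. The sign changed for nhr-8 without a count filter (-0.016) and with a library left out (-0.095 to 0.11), for nhr-49 (-0.052 to 0.24) and for nhr-114 (-0.58 to 0.39). The libraries were not treated as paired by their numbers, since the labels do not say what same-numbered libraries share and the deviations of the 2 pairs correlated at 0.0814 across genes. A replicate block gave 0 calls and, before adjustment, 7 higher and 3 lower receptors at p under 0.05, and changed the call of no named gene. nhr-277 and nhr-167 gave no value when 10 counts were required in all 4 libraries. Receptors under 1 FPKM are limited by depth.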
